A study of Mus musculus with 22 samples.

Results

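Lamina-associated domains (LADs) of mouse embryonic fibroblasts (MEFs) depleted of lamins A and C by a short hairpin RNA (shAC) were compared with those of MEFs given trichostatin A (TSA). The treatment named in the sample labels chose the lists: 4 of the 11 LAD lists of the series, from 8 of its 22 sequenced DamID samples. The shAC lists came from embryos 1.5 and x17 and the TSA lists from embryos 1.8 and x17, so that only embryo x17 carried both treatments. On chromosomes 1 to 19, after joining and length filtering, the shAC lists held 3866 LADs and the TSA lists 4300, of 22882 in all 11 lists. The questions were whether both treatments lacked the same LAD bases of untreated cells, and which bases were called under only 1 of them.

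LADs are long stretches of mostly silent, gene-poor heterochromatin that lie against the nuclear lamina, the protein mesh under the inner nuclear membrane. Lamins A and C are splice products of Lmna and form part of that mesh beside the B-type lamins. TSA inhibits histone deacetylases, enzymes that keep histones in heterochromatin poorly acetylated. DamID reads lamina contact from methylation left on adenines by Dam, a bacterial enzyme, when it is tethered to lamin B1. Free Dam in parallel cultures corrects for how open the chromatin is. The Dam fusion carries lamin B1 and not lamin A/C, so contact was read through the same protein in every culture.

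All cultures were primary MEFs from C57bl/6 embryos at stage e13.5, used within 5 passages. For shAC, cells were infected overnight with the hairpin virus and selected with puromycin, received the Dam virus at 4 days and were collected 48 h later. TSA was present for 18 to 24 h before the Dam virus was added, with collection at 60 h. The comparison cells (WT; embryos 1.5, 1.8 and x17) were untreated, and neither a control hairpin nor a vehicle is named for them. Effects of infection, selection, vehicle or time therefore cannot be told apart from those of the depletion or the drug. BIX01294, which inhibits the histone methyltransferase G9a, and DZNep, which lowers histone methylation, gave 2 further lists each, from embryos 1.8 and x17, and serve below as reference treatments. The lists hold interval starts and ends with no measured level. Depth, the degree of lamin depletion and the fibroblast identity of the cultures could thus not be checked from them. With 2 lists against 2, an exact permutation test cannot give a two-sided p below 0.333, so no difference between shAC and TSA could pass 0.05 in that test. No test that assumes a distribution was run on so few lists.

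Total LAD length overlapped between the treatments unless each list was set against the WT list of its own embryo. LADs covered 1431 Mb (embryo 1.5) and 1339 Mb (embryo x17) in shAC, and 1356 Mb (embryo 1.8) and 1302 Mb (embryo x17) under TSA. The means were 1385 ± 65.3 Mb for shAC and 1329 ± 38.0 Mb for TSA (SD, n = 2 each), a difference of -56.1 Mb (two-sided exact permutation test, p = 0.667). WT lists covered 1438 ± 65.6 Mb (SD, n = 3). Against the WT list of its own embryo, the shAC list was longer by 54.4 Mb in embryo 1.5, and the difference was -89.9 Mb in embryo x17. For TSA it was -151 Mb (embryo 1.8) and -127 Mb (embryo x17). Both TSA lists were thus shorter than the WT list of their embryo, and 1 of the 2 shAC lists was. On this same-embryo scale (replicate block) the treatments did not overlap, and their means differed by -121 Mb. That difference also takes in the gap between single WT lists, 1377 Mb in embryo 1.5 and 1507 Mb in embryo 1.8. Only embryo x17 carried both treatments, with 1302 Mb under TSA and 1339 Mb in shAC.

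Long LADs separated the treatments. LADs of 1 Mb or more held 882 Mb and 844 Mb in the shAC lists of embryos 1.5 and x17, and 697 Mb and 711 Mb in the TSA lists of embryos 1.8 and x17. The groups did not overlap, and the TSA values were also below those of the 3 WT lists (839, 873 and 871 Mb for embryos 1.5, 1.8 and x17) and of the 4 BIX01294 and DZNep lists (837 to 923 Mb). The mean was 863 ± 27.3 Mb in shAC and 704 ± 9.53 Mb under TSA (SD, n = 2 each), a difference of -159 Mb with the smallest two-sided p this design allows (exact permutation test, p = 0.333). There were 397 and 376 such LADs in shAC and 350 and 346 under TSA, although the TSA lists held more LADs in all (2218 and 2082, against 2011 and 1855 in shAC). In embryo x17 alone the difference was -133 Mb. The deposited lists also differed before joining, with 7703 and 8419 intervals in shAC and 6054 and 5720 under TSA. With the lists used as deposited, without joining, the difference for intervals of 1 Mb or more was -105 Mb. The measures of long LADs and long blocks were chosen after the values were seen.

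**Figure D1:**
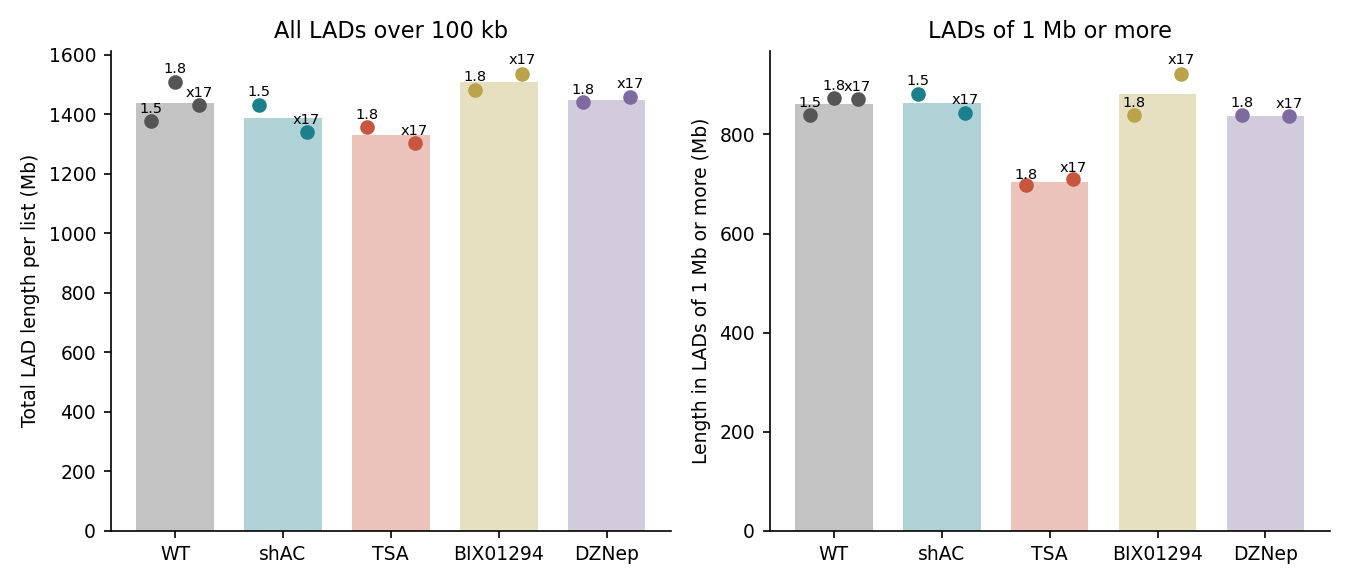
Length in Mb (linear axes from 0) of all LADs over 100 kb (left) and of LADs of 1 Mb or more (right), by treatment. Points are single lists marked with their embryo, and bars are means. The totals of shAC and TSA overlap, whereas the TSA lists, at 697 and 711 Mb, lie below every other list for LADs of 1 Mb or more.

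To ask which WT bases each treatment lacked, bases called in all 3 WT lists were taken as WT LAD bases. They summed to 1270 Mb in 2105 blocks, a block being an unbroken run of such bases. A base was lacked by a list where the list had no LAD over it. The shAC list of embryo 1.5 lacked 26.3 Mb (2.07% of WT LAD bases) and that of embryo x17 70.3 Mb (5.53%). The TSA list of embryo 1.8 lacked 102 Mb (7.99%) and that of embryo x17 105 Mb (8.30%). Both TSA lists thus lacked more than both shAC lists, with a difference of 4.35 percentage points between means of 8.15 ± 0.217% and 3.80 ± 2.45% (SD, n = 2 each; exact permutation test, p = 0.333, the smallest possible). The shAC lists differed from each other by more than the distance from the shAC list of embryo x17 to either TSA list. The BIX01294 lists lacked 21.6 and 9.58 Mb and the DZNep lists 22.8 and 21.7 Mb, less than any shAC or TSA list. Bases lacked by both lists of a treatment came to 14.9 Mb in shAC (1.18%) and 58.2 Mb under TSA (4.58%).

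In every one of the 8 treated lists, the longer the WT block, the smaller the share of it that was lacked. For blocks of 100 to 250 kb, shAC lacked 9.36% (embryo 1.5) and 23.8% (embryo x17) of the bases, and TSA lacked 23.6% (embryo 1.8) and 27.3% (embryo x17). The treatments overlapped there (two-sided exact permutation test, p = 0.667). In blocks of 1 Mb or more, shAC lacked 0.474% and 1.16%, and TSA lacked 3.34% and 2.99%. In these blocks the treatments did not overlap, and the means were 0.818 ± 0.486% for shAC and 3.17 ± 0.246% for TSA (SD, n = 2 each; exact permutation test, p = 0.333). The share lacked in the longest blocks divided by that in blocks of 100 to 250 kb was 0.0507 and 0.0489 in shAC, 0.141 and 0.110 under TSA, and between 0.0805 and 0.111 in the BIX01294 and DZNep lists. The shAC lists were the lowest of the 8 on this ratio. Distance from the block edge showed a like order. Within 25 kb of an edge, shAC lacked 10.5% and 21.8% and TSA 27.0% and 29.8%, whereas more than 100 kb from any edge shAC lacked 0.508% and 1.71% and TSA 3.42% and 3.30%.

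**Figure D2:**
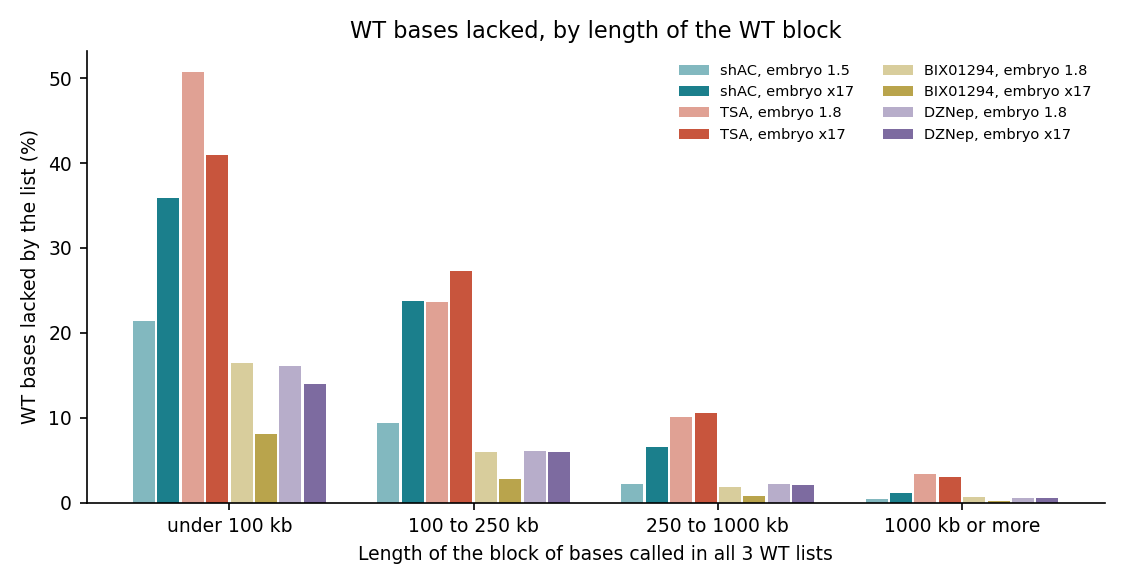
Percent of the bases called in all 3 WT lists that a treated list lacks, by length of the WT block, for the 8 treated lists (1 bar each, no replicates within a bar). In blocks of 100 to 250 kb the shAC list of embryo x17 (23.8%) is level with TSA of embryo 1.8 (23.6%). In blocks of 1 Mb or more both TSA lists stand above all others.

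The 328 WT blocks of 1 Mb or more were mostly kept whole in shAC and mostly not under TSA. A block counted as whole where every base lay in a LAD, as shortened where 1 piece remained, and as split where 2 or more pieces remained. The shAC list of embryo 1.5 kept 204 of them whole (62.2%) and that of embryo x17 kept 176 (53.7%). The TSA list of embryo 1.8 kept 87 whole (26.5%) and that of embryo x17 kept 100 (30.5%). The TSA shares were also below those of BIX01294 (59.5% and 74.1%) and DZNep (61.9% and 57.9%). Split blocks numbered 35 and 55 in shAC (10.7% and 16.8%), and 106 and 91 under TSA (32.3% and 27.7%). No block of this length was absent from any treated list. The whole share differed by -29.4 percentage points (57.9 ± 6.04% in shAC, 28.5 ± 2.80% under TSA; SD, n = 2 each; exact permutation test, p = 0.333). Its sign was kept in 15 of 15 alternatives, but its size was -9.59 points for blocks of bases in at least 2 WT lists. It was -12.6 points in the replicate block, with lists and WT blocks of embryo x17 only. Keeping LADs over 200 kb or over 500 kb, or cutting lists to equal length, drops only shorter LADs. Those alternatives could not alter the value and gave -29.4 points again.

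**Figure D3:**
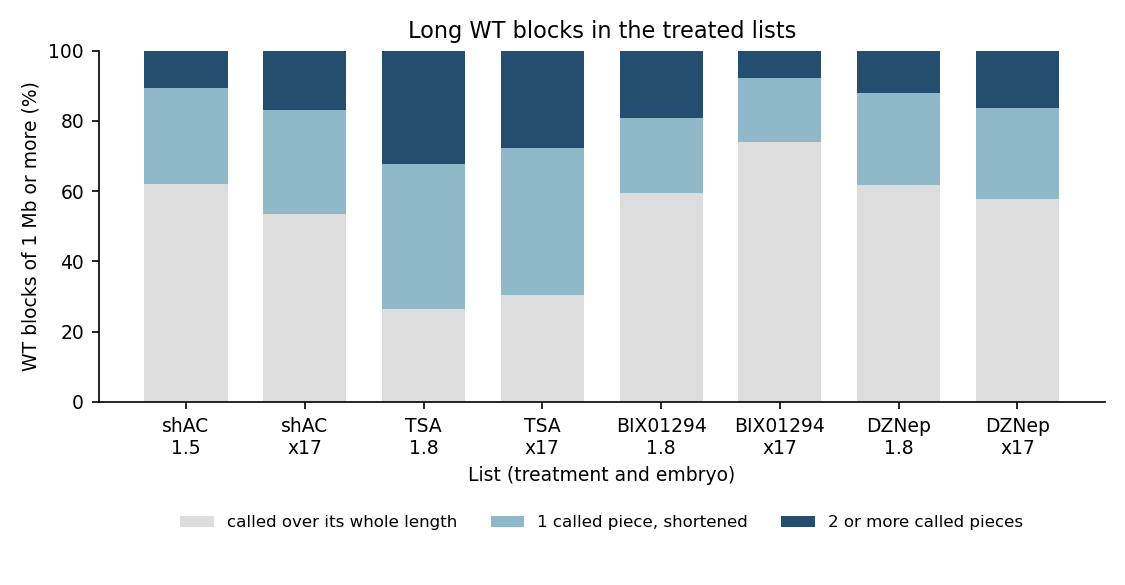
Percent of the 328 WT blocks of 1 Mb or more that each treated list calls over their whole length, as 1 shortened piece, or as 2 or more pieces (stacked to 100%). Whole blocks make up 26.5% and 30.5% under TSA and 53.7% to 74.1% in the other 6 lists.

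Part of what shAC lacked was also lacked under TSA. Of the 14.9 Mb lacked by both shAC lists, 6.03 Mb were lacked by both TSA lists, which is 40.4% of the bases lacked in shAC, beside 4.58% of all WT LAD bases. The same 6.03 Mb made up 10.4% of the bases lacked under TSA, beside 1.18% of all WT LAD bases. The overlap was 8.82 times the product of both shares (0.684 Mb), where at most 21.8 times was possible. Both comparisons use the same WT lists, so the overlap is a count and not independent evidence of a shared effect, and bases along a chromosome are not replicates. When the bases lacked in shAC were moved along the joined WT LAD bases of each chromosome by 199 evenly spaced circular shifts, 4.82% of them on average fell on bases lacked under TSA (range 1.70% to 9.74%). Both treatments lacked short blocks and block edges more often than the rest. Computed within classes of block length and edge distance, the expected overlap was 2.12 Mb and the ratio 2.84. Overlap above the product of shares was not particular to this pair. The ratio was 28.7 for shAC with BIX01294, 26.3 for shAC with DZNep, 12.7 for TSA with BIX01294 and 10.5 for TSA with DZNep, and within the same classes it was 6.22, 6.82, 3.96 and 3.65. The reference treatments lacked fewer bases, and the highest possible ratio depends on the larger lacked share of a pair. For shAC with either of them that share was 1.18%, which raised the highest possible ratio. For TSA with either of them it was 4.58%, so at most 21.8 was again possible.

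Single pairs of lists gave unequal shares. Of the bases lacked by shAC of embryo 1.5, 48.1% were also lacked by TSA of embryo 1.8 and 55.1% by TSA of embryo x17. For shAC of embryo x17 these shares were 29.0% and 41.7%. Each shAC list shared the larger part with TSA of embryo x17, including the list from another embryo. As shares of what TSA lacked, the 4 pairs gave 12.5%, 13.7%, 20.1% and 27.8% in the same order. Within shAC, 56.8% of what the list of embryo 1.5 lacked was also lacked in embryo x17, beside 5.53% of all WT LAD bases, and 21.2% in the other direction, beside 2.07%. The TSA lists shared 57.3% (embryo 1.8) and 55.2% (embryo x17) of what each lacked, beside 8.30% and 7.99%. Taken over the smaller lacked set of each pair, the shared part was thus 56.8% and 57.3% within treatments and 29.0% to 55.1% between them. The ratio to the product of shares was 10.3 between the shAC lists, 6.90 between the TSA lists and 5.33 ± 1.31 over the 4 pairs between treatments (SD; the pairs share lists), a gap of 3.26 (one-sided exact permutation test, p = 0.333, the smallest possible). Without the shAC list of embryo x17 the gap was 0.573. The ratio cannot exceed 1 over the larger lacked share, and its highest possible value was 18.1 for the shAC pair and 12.05 to 12.5 for the others.

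**Figure D4:**
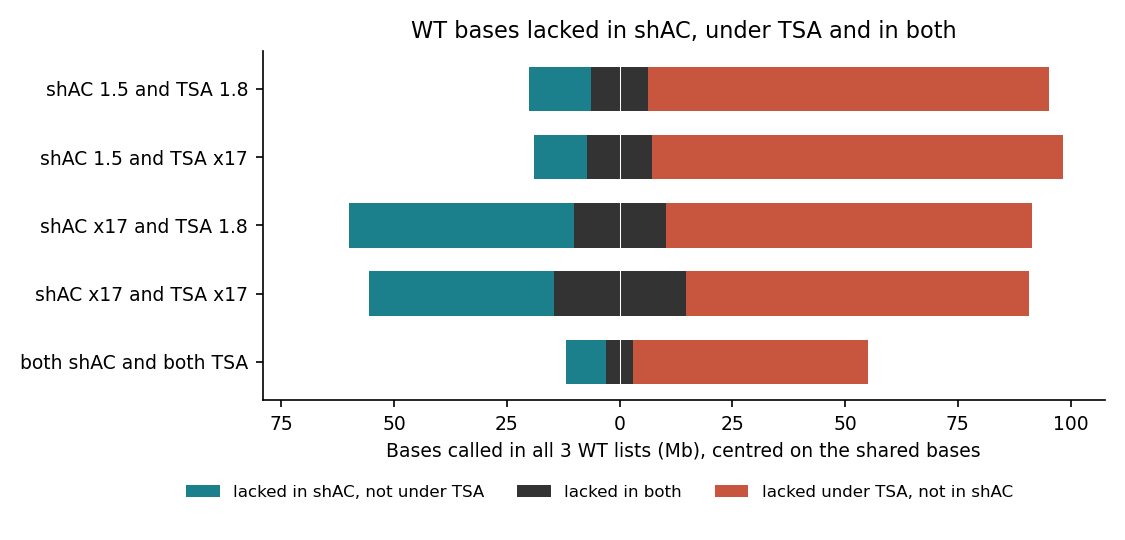
WT LAD bases (Mb, linear scale, bars centred on the shared bases) lacked in shAC only, in both treatments and under TSA only, for the 4 pairs of single lists and for bases lacked by both lists of each treatment. In the bottom bar, 6.03 Mb of the 14.9 Mb lacked in shAC are shared with the 58.2 Mb lacked under TSA.

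The lists of embryo x17 gave the comparison within the same animal. Of the 1429 Mb in the WT list of this embryo, shAC lacked 133 Mb (9.34%) and TSA 193 Mb (13.51%), and 71.8 Mb were lacked by both. These were 53.8% of what shAC lacked and 37.2% of what TSA lacked, a ratio of 3.98 where at most 7.40 was possible. Under circular shifts the share of the shAC-lacked bases was 13.6% on average (range 11.6% to 20.5%). However, 59.2% of the 71.8 Mb were bases that at least 1 other WT list also lacked, beside 11.1% of all bases in this WT list. Among bases called in the WT list of embryo x17 and no other, shAC lacked 47.4% and TSA 68.0%, and 79.9% of the shAC-lacked bases were lacked by both. Among those called in 2 WT lists, shAC lacked 36.3% and TSA 49.3%, with 59.5% of the shAC-lacked bases shared. Among those called in all 3, these were 5.53% and 8.30%, with 41.7% shared. The ratios in these classes were 1.18, 1.21 and 5.02, where the highest possible values were 1.47, 2.03 and 12.05, so they were not compared with each other. With each treated list set against the WT list of its own embryo and the lacked bases of both embryos pooled (replicate block), the ratio was 2.61, and 54.8% of the shAC-lacked and 31.2% of the TSA-lacked bases were shared, beside 21.0% and 11.9% of all WT bases.

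A WT list that did not define the WT bases gave a yardstick for how much of this was shared with untreated cells. Of the bases in the WT lists of embryos 1.8 and x17, the WT list of embryo 1.5 lacked 6.13%. It lacked 52.7% of those that both shAC lists lacked and 31.8% of those that both TSA lists lacked. With the WT list of embryo x17 as the yardstick these were 4.63%, 63.4% and 30.4%, and with that of embryo 1.8 they were 1.91%, 18.9% and 16.0%. In each case, what shAC lacked was lacked by the untreated list more often than what TSA lacked. The cases reuse the same treated lists and are not independent. They also differ in shared embryos: embryo 1.5 gave a shAC list but no TSA list, embryo 1.8 the reverse, and embryo x17 both. The gap was smallest with embryo 1.8. Whether the shared embryo accounts for it was not tested. Bases lacked by both treatments were lacked by the yardstick list in 53.5%, 67.0% and 23.6% (embryos 1.5, x17 and 1.8).

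The WT LAD bases fell into kinds that differed in their calls under the reference treatments. Of the 6.03 Mb lacked by both treatments, 70.3% were lacked by at least 1 of the 4 BIX01294 and DZNep lists. This was 35.2% for the 4.46 Mb lacked in shAC but called in both TSA lists, 22.8% for the 38.8 Mb lacked under TSA but called in both shAC lists, and 4.38% for all WT LAD bases. Bases lacked under TSA and kept in shAC were therefore called in all 4 reference lists in 77.2% of cases. They also lay deeper in longer blocks. Blocks under 250 kb held 32.5% of them, 55.2% of the bases lacked by both treatments and 71.5% of those lacked in shAC and kept under TSA, beside 10.5% of all WT LAD bases. Blocks of 1 Mb or more held 22.7%, 8.69% and 6.02% of these kinds in the same order, and 53.8% of all WT LAD bases. Of the pieces in which these bases lay, 144 of 752 were 100 kb or longer for TSA only, 13 of 206 for shAC only and 21 of 242 for both.

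Counted by block, 2015 WT blocks were 100 kb or longer, and a block was called lost where less than 50% of it lay in LADs. The shAC lists of embryos 1.5 and x17 lost 63 and 213 of them, and the TSA lists of embryos 1.8 and x17 lost 221 and 250. Both shAC lists lost 50 blocks (2.48% of those tested) and both TSA lists lost 140 (6.95%). All 4 lists lost 16, which are 32.0% of those lost in shAC, beside the 6.95% of all blocks lost under TSA, and 11.4% of those lost under TSA, beside 2.48%. The blocks lost by both lists were short, with a median of 125 kb in shAC, 159 kb under TSA and 149 kb in all 4 lists. Of blocks of 1 Mb or more, shAC of embryo x17 lost 2, TSA of embryo 1.8 lost 1, and shAC of embryo 1.5 and TSA of embryo x17 lost 0. Of the 16, 5 were lost in none of the BIX01294 and DZNep lists and none was lost in all of them. Both BIX01294 lists lost 6 blocks and both DZNep lists 7.

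The excess of TSA over shAC was spread over the chromosomes. The share of WT LAD bases lacked by both lists was higher under TSA on 19 of 19 chromosomes, with a median of 4.21% under TSA and 1.19% in shAC. Both TSA lists exceeded both shAC lists on 16 of them, and the treatments overlapped on chromosomes 7, 11 and 19. Chromosome 7 had the lowest share in both treatments (0.549% in shAC, 1.72% under TSA). The highest share under TSA was on chromosome 10 (7.48%, with 11.8% and 11.2% in the single lists). In shAC the highest was on chromosome 13 (2.21%), where TSA lacked 7.38%. The share of the shAC-lacked bases that was also lacked under TSA was above the share of all WT LAD bases lacked under TSA on 19 of 19 chromosomes. It ran from 17.9% on chromosome 14 to 66.3% on chromosome 12.

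Set against each other without WT, the treatments differed in an unequal way. Bases called in both shAC lists and in no TSA list summed to 76.8 Mb, and those called in both TSA lists and in no shAC list to 34.5 Mb. All 4 lists called 1115 Mb. When the shortest LADs were dropped until all lists had equal length, the sums were 62.4 Mb for shAC and 50.6 Mb for TSA, which are less unequal. Of the 6 ordered arrangements of the lists, the real one gave the largest sum for shAC (one-sided exact permutation test, p = 0.167, the smallest possible), and for TSA the reversed labels alone gave more (p = 0.333 in the same exact test). The remaining 4 arrangements gave 6.25 to 26.5 Mb. The Jaccard index (shared bases over bases in either list) was 0.870 between the shAC lists, 0.836 between the TSA lists, and 0.796, 0.819, 0.772 and 0.814 between treatments. The distance between treatments exceeded that within by 0.0528, against -0.0191 and -0.0338 for the other arrangements (one-sided exact permutation test, p = 0.333). For scale, the Jaccard index between WT lists was 0.855 to 0.858. The shAC lists of embryos 1.5 and x17 were at 0.890 and 0.880 with the WT list of embryo x17, above their index with each other. With the other WT lists they were at 0.810 to 0.863.

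Bases specific to shAC lay in all 3 WT lists more often than bases specific to TSA. Of the 76.8 Mb specific to shAC, 50.6% lay in all 3 WT lists and 5.76% in none. Of the 34.5 Mb specific to TSA, 12.9% lay in all 3 WT lists and 26.2% in none. Both kinds were far below the bases called in all 4 shAC and TSA lists, of which 97.0% lay in all 3 WT lists. The calls of the reference treatments divided likewise: 51.5% of the shAC-specific bases were in all 4 BIX01294 and DZNep lists and 3.52% in none, whereas 26.9% of the TSA-specific bases were in all 4 and 22.6% in none. For bases called in all 4 shAC and TSA lists, 97.8% were in all 4 reference lists. Pieces of 100 kb or more numbered 290 of 1211 for shAC, the longest 751 kb, and 151 of 721 for TSA, the longest 405 kb. On 17 of 19 chromosomes there were more shAC-specific than TSA-specific bases, the exceptions being chromosomes 11 and 17. Chromosome 3 had the most unequal amounts, with 6.77 Mb specific to shAC and 1.01 Mb specific to TSA. For embryo x17 alone (replicate block), where 1 list stands for each treatment, 154 Mb were specific to shAC and 117 Mb to TSA. Of these, 78.8% (shAC) and 52.7% (TSA) lay in the WT list of that embryo.

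**Figure D5:**
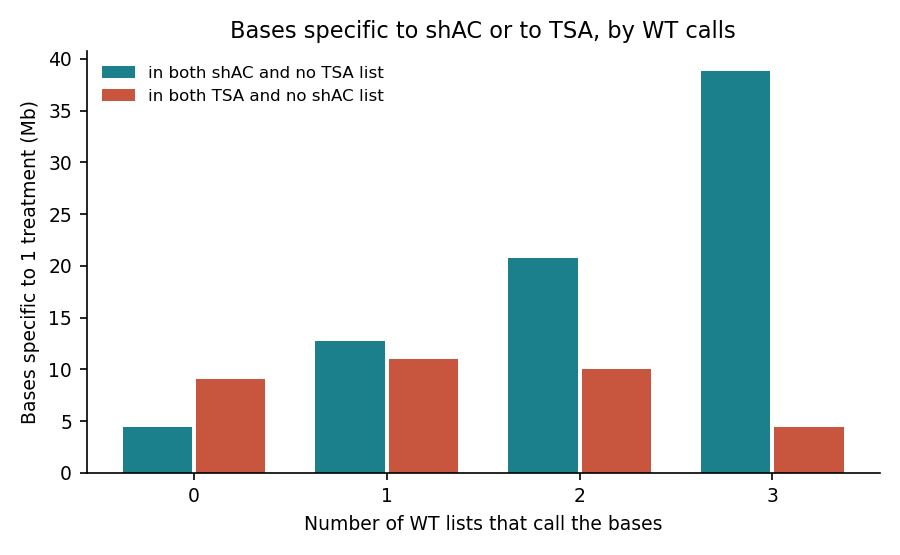
Bases (Mb, linear axis from 0) called in both lists of 1 treatment and in neither list of the other, by the number of WT lists that call them. The shAC-specific bases rise from 4.42 Mb in no WT list to 38.8 Mb in all 3, whereas the TSA-specific bases are 9.04 Mb and 4.46 Mb at these ends.

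Bases gained, that is called in both lists of a treatment and in no WT list, were fewer and mostly not shared. They summed to 6.32 Mb in shAC (253 pieces, 19 of 100 kb or more) and 11.8 Mb under TSA (297 pieces, 46 of 100 kb or more). All 4 lists gained 0.378 Mb in 28 pieces, none of 100 kb or more. This was 5.97% of the shAC gain, beside 1.46% of all non-WT bases gained under TSA, and 3.19% of the TSA gain, beside 0.779% gained in shAC. Of the 0.378 Mb, 98.7% were in at least 1 BIX01294 or DZNep list, beside 10.9% of all non-WT bases. The share was 73.1% for the 4.42 Mb gained in shAC and in no TSA list, and 39.5% for the 9.04 Mb gained under TSA and in no shAC list.

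The longest interval of each kind shows how the kinds differed at single loci (positions in mm9, the build in the submitters' processing notes, counted from 1). Gene annotation of that build was not used here, so genes in these intervals are not named. Lacked by both treatments, the longest was chr4:45806516-45975825 (169 kb), at the edge of a WT block of 192 kb, and all 4 reference lists called most of it. It was followed by chr3:150743579-150906377 (163 kb), at the edge of a block of 1777 kb, and by chr3:132366285-132521568 (155 kb). The latter was a whole WT block that was also at 0% in the x17 lists of BIX01294 and DZNep, at 48.3% in BIX01294 of embryo 1.8 and at 100% in DZNep of embryo 1.8.

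Lacked under TSA alone, the 3 longest intervals all lay on chromosome 10, the chromosome with the highest TSA share. They were chr10:97222796-97766197 (543 kb, a whole WT block), chr10:29835184-30239719 (405 kb, inside a block of 515 kb) and chr10:26907181-27288539 (381 kb, a whole block). The WT lists and both shAC lists called each of them in full, both TSA lists called none of their bases, and the reference lists called between 83.1% and 100% of each. Lacked in shAC alone, the longest were much shorter: chr5:144689629-144856514 (167 kb), chr4:155412019-155554169 (142 kb) and chr9:54810628-54951866 (141 kb). The interval on chromosome 4 was also at 0% in both DZNep lists, while that on chromosome 9 was at 100% in all 4 reference lists.

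Of the gained intervals named, the longest were of TSA, and the 3 of TSA were called in no list of another treatment. The intervals chr5:143117253-143522528 (405 kb), chr2:27919183-28317129 (398 kb) and chr5:3944014-4179205 (235 kb) were at 100% in both TSA lists and at 0% in the other 9 lists of the series. In shAC the longest were chr13:26134428-26395791 (261 kb), chr3:66799827-67006745 (207 kb) and chr10:50448150-50630748 (183 kb). Each of these was called in part by at least 1 reference list, most fully chr3:66799827-67006745, at 99.1% and 100% in the x17 lists of BIX01294 and DZNep. Gained in all 4 lists, the longest was chr8:19798488-19853133 (54.6 kb), which BIX01294 and DZNep of embryo 1.8 also called in full. The next were chr15:57226749-57265843 (39.1 kb), called in full by all 4 reference lists, and chr1:79431584-79469909 (38.3 kb), called in full by DZNep of embryo 1.8.

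LAD boundaries of the treated lists were set beside those of the WT list of the same embryo. Of the WT boundaries, TSA had a boundary of the same type within 100 kb for 63.2% (embryo 1.8) and 65.8% (embryo x17), and shAC for 72.1% (embryo 1.5) and 68.7% (embryo x17). The median shift into the LAD was 1.99 and 2.83 kb under TSA. In shAC it was -0.894 kb in embryo 1.5, which is outward, and 1.39 kb in embryo x17. From the WT list of embryo x17 to the other WT lists the medians were 1.84 kb (embryo 1.5) and -0.589 kb (embryo 1.8), below the 2.83 kb of TSA in that embryo. From the WT list of embryo 1.8 they were 3.03 kb (embryo 1.5) and 0.587 kb (embryo x17), on either side of the 1.99 kb of TSA. From that of embryo 1.5 they were -3.02 kb (embryo 1.8) and -1.83 kb (embryo x17), both further outward than the -0.894 kb of shAC. Between WT lists 64.1% to 75.9% of boundaries had a partner, and TSA of embryo 1.8 lay below that range. The mean shift was inward by 6.58 kb (embryo 1.8) and 8.16 kb (embryo x17) under TSA and by 6.73 kb in shAC of embryo x17, whereas in shAC of embryo 1.5 it was -2.70 kb. Between WT lists the mean ran from -7.52 to 7.58 kb, and from the WT list of embryo 1.5 it was -7.52 and -3.79 kb. From shAC to TSA in embryo x17, 66.5% of 3710 boundaries had a partner within 100 kb, with a median shift of 0.413 kb inward. Shifts of more than 10 kb were inward in 29.2% and outward in 22.4% of the matched boundaries.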

How the data were processed

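DamID-seq of 22 samples gave 11 lists, each from 1 library of Dam-lamin B1 and 1 of Dam alone. By the study's methods, the authors segmented reads with LADetector; they deposited 1 list of intervals per pair (start and end, no other value). The genome build, mm9, is from the submitters' processing notes, and the aligner is not given in the sources used here. Read depth is unknown. Signal tracks were left out.

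Neighbouring intervals less than 25 kb apart were merged, and merged ones over 100 kb retained, as in the study's methods, on chromosomes 1 to 19. Groups came from the labels. Lists with the same embryo name were taken as 1 animal, which is the source of the pairing in the replicate block. Embryos 1.5 and 1.8 carry replicate number 1 and x17 number 2, so shAC and TSA form 1 same-embryo pair. Exact permutation of the 4 lists compared shAC with TSA. P-values measure the spread between lists and were not adjusted. Overlaps were set beside the product of shares, and circular shifts are a description. A boundary was matched to the nearest of its type within 100 kb. Named intervals are the 3 longest of each of 6 kinds, and the chromosomes with the highest and lowest lacked shares. Members, lists and measures were chosen with earlier results of these data known. Python 3.11.15, numpy 2.4.6 and matplotlib 3.10.9 were used. On simulated data, the arithmetic matched base-by-base counting in 200 random sets, with 0 mismatches. Alternatives were other joining and length limits, chromosome X, lists of equal length, other WT bases, other expected overlaps, the replicate block, and leaving out each list.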

Additional observations from a re-analysis of the deposited data

Results flagged for a closer look

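Total LAD length in shAC minus that of the WT list of the same embryo had opposite signs: it was 54.4 Mb for embryo 1.5 and -89.9 Mb for embryo x17. Each value rests on 1 list per group, and the difference between the embryos was not tested. The WT list of embryo 1.5 was the shortest of the WT lists (1377 Mb) and was made from the fewest deposited intervals (4485, against 7306 and 8917 in embryos 1.8 and x17).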

How the results depend on the processing

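Across 10 results, 133 alternative values were computed. Of these, 28 kept their sign but were classed as moved in size, and 1 changed sign. No sign change was possible for shared-to-expected ratios, shares of lacked bases or sums of specific bases, which cannot be negative. The ratio of shared to expected lack (8.82) was 10.6 with lists cut to equal length, 5.26 for bases in at least 2 WT lists, 3.98 with embryo x17 alone, 2.61 in the replicate block and 2.84 within classes of block length and edge distance. It ran from 4.98 (without shAC of embryo 1.5) to 8.02 with each list left out. The share of shAC-lacked bases also lacked under TSA (40.4%) was 53.8% with embryo x17 alone and 54.8% in the replicate block, where TSA lacked 13.51% and 21.0% of all WT bases, against 4.58%. It ran from 22.8% without shAC of embryo 1.5 to 60.7% without TSA of embryo 1.8. The share of TSA-lacked bases also lacked in shAC (10.4%) was 22.3% for bases in at least 2 WT lists, 37.2% with embryo x17 alone and 31.2% in the replicate block, where shAC lacked 9.34% and 11.9% of all WT bases, against 1.18%. It ran from 7.33% to 27.6% (without shAC of embryo 1.5), and was 21.9% without WT of embryo x17 and 16.0% without shAC of embryo x17. Every one of these values exceeded its share among all WT bases. Total length, TSA minus shAC (-56.1 Mb), was 0.0579 Mb with lists cut to equal length, as that cut requires. Taken as the difference of the mean treated minus WT values within embryos (replicate block) it was -121 Mb, which also takes in differences between the WT lists. The uncorrected value ran from -102 to -9.93 Mb (without shAC of embryo 1.5) with each list left out. Bases in both shAC and no TSA list (76.8 Mb) were 62.4 Mb with lists cut to equal length, 154 Mb in the replicate block and 105 to 131 Mb with each list left out. Bases in both TSA and no shAC list (34.5 Mb) were 50.6 Mb with lists cut to equal length, 12.9 Mb for LADs over 500 kb, 117 Mb in the replicate block and 44.2 to 104 Mb with each list left out. Fewer lists must agree in the last 2 settings. Where no construction gives it, the cause was not tested. The Jaccard separation (0.0283 to 0.0861) and the gap in that ratio within against between treatments (0.573 to 5.44, lowest without shAC of embryo x17) kept their sign in all alternatives run. They cannot be computed for embryo x17 alone. For LADs of 1 Mb or more, TSA minus shAC ran from -179 (joined under 50 kb) to -105 Mb (lists as deposited). Settings that only drop shorter LADs could not change it. Alternatives for that value and for whole blocks were chosen after seeing the data. Without read depth or signal, calls near the detection limit cannot be told from strong ones.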
